A study of Mus musculus with 12 samples.

Results

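The nuclear genes for the subunits of oxidative phosphorylation (OXPHOS) complexes I to V were examined in RNA sequencing of primary hepatocytes, the parenchymal cells of the liver, cultured from mice. Members were the protein-coding genes whose symbols start with Ndufa, Ndufb, Ndufc, Ndufs or Ndufv (without the assembly factors Ndufaf), Sdha to Sdhd, Uqcr, Cyc1, Cox4i, Cox5, Cox6, Cox7, Cox8 or Atp5 and that had at least 10 counts in 3 libraries. These were 81 of the 55487 gene identifiers in the files: 36 for complex I, 4 for complex II, 9 for complex III, 15 for complex IV and 17 for complex V. A further 6 genes met the rule by symbol and had too few counts, namely Cox4i2, Cox6a2, Cox7b2, Cox8b, Cox8c and a second locus named Atp5o. Control cells were untreated. The FAC group received FAC, which is given only by these letters. The Lip-1+FAC group was given liproxstatin-1, a scavenger of lipid reactive oxygen species, on day 2 of culture and then FAC. The MT+FAC group was given Mito-TEMPO, a scavenger of mitochondrial reactive oxygen species, and then FAC. Each of the 4 groups held 3 libraries, and no group received a scavenger alone. Strain, sex, age and dose are not given in the sources used here.

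Complexes I to IV pass electrons from NADH and succinate through coenzyme Q and cytochrome c to oxygen, and complexes I, III and IV pump protons that drive ATP synthesis by complex V. Complex II is encoded wholly in the nucleus, whereas the other complexes combine nuclear subunits with a few that are made from mitochondrial DNA. In complex I, a core of subunits carries the flavin and iron-sulfur centres and is surrounded by small supernumerary subunits. Many supernumerary subunits of complexes I, III, IV and V are short proteins with short messenger RNAs. Transcript length, taken as the shortest of the principal annotated coding transcripts, had a median of 745 bases over the 81 genes and ran from 315 to 3171 bases. It was under 1000 bases for 23 of 36 genes of complex I, 5 of 9 of complex III, 13 of 15 of complex IV and 12 of 17 of complex V, and for none of the 4 of complex II (shortest 1142 bases).

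OXPHOS genes are known for promoters bound by nuclear respiratory factor 1 (NRF1) and by GABP, an ETS-family factor. Of the 81 genes, 65 had a RefSeq promoter entry (build GRCm38.p6), and the 250 bases before the start in that entry were searched on both strands. The NRF1 letters GCGCATGCG were found in 6 of 65 subunit genes (9.23%) and in 1.64% of all 27025 genes with an entry. The ETS letters CCGGAAG were found in 12 of 65 (18.5%) and in 7.83% of all genes. The YY1 letters ATGGCGG were found in 4 of 65 against 2.58% of all genes, and the estrogen-related receptor letters AAGGTCA in 5 of 65 against 4.70%. The core letters of the hypoxia response element, ACGTG, were found in 12 of 65 (18.5%) and in 18.5% of all genes. None of these strings contains another, and a match is a description of the window only. The sites with the NRF1 letters are shown, since NRF1 is a main known regulator of these genes, together with the ETS letters of Sdhd, a gene on which later results turn. Each is written 5′ to 3′ on the strand of its gene, with the match in capitals and up to 10 bases on either side. Gene starts can differ in GENCODE M21, the annotation used for gene positions. By it the sites of Atp5g2 and Ndufa8 lie inside the gene and that of Atp5k spans the gene's start.
Atp5g2 (chr15:102671071-102671099, minus strand): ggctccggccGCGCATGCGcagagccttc
Atp5k (chr5:108434431-108434459, minus strand): tttcactgcgGCGCATGCGcctttctggc
Atp5l (chr9:44920965-44920992, minus strand): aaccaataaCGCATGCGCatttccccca
Cox6a1 (chr5:115349102-115349130, minus strand): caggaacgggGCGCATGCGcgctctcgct
Ndufa11 (chr17:56717692-56717720, plus strand): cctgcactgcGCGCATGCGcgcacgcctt
Ndufa8 (chr2:36049339-36049357, minus strand): tcgctggagaCGCATGCGC
Sdhd (chr9:50603879-50603905, minus strand): cgtctcctgcCTTCCGGttcacgcttc

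Gene-assigned counts per library lay between 22991598 and 31683376, except for 52529278 in FAC replicate 2, whose file is marked as combined. Gene-assigned reads were 80.4% to 81.2% in the 6 pretreated libraries and 75.8% to 79.8% in the others, multimapping reads 4.88% to 5.20% and 5.53% to 6.23%, and unmapped reads 6.02% to 6.75% and 6.94% to 10.1%. The part of these differences in the results was not tested. The 81 genes held 1.10% to 1.49% of the counts of a library. Levels are given as counts scaled to equal library totals (CPM) after scaling by trimmed means (TMM). Nothing in the labels says that the replicates came from separate cultures or animals, so p-values measure the spread between these libraries, which may be technical. Summed CPM of 8 hepatocyte markers ranged from 17280 to 17581 in control, 16572 to 17534 in FAC, 13691 to 14709 with Lip-1+FAC and 13989 to 15298 with MT+FAC. Alb and Apoa1 made up most of this sum, and its members did not all follow it: Cps1 had group means of 1695, 711, 1034 and 1060 CPM, Tat 71.0, 38.5, 31.0 and 31.1, and Apob 720.3, 949, 1054 and 1042 in this order. Summed CPM of 6 macrophage markers ranged from 223 to 255, 289 to 321, 115 to 146.6 and 142.6 to 174 in the same order. Cd68 made up most of this sum, with group means of 226, 295, 124 and 145 CPM, whereas Clec4f, Adgre1 and Marco, each under 5 CPM, had higher means in both pretreated groups than in FAC, Csf1r had lower means in both and Vsig4 was higher in Lip-1+FAC only. Of 5 cholangiocyte markers, the sum was 58.6 to 68.9 in control and 98.4 to 145 in the other groups. All 5 had higher means in FAC than in control, while in the pretreated groups Spp1 alone was above control (101 and 103 against 40.7 CPM) and the other 4 were below it. The endothelial sum was 34.8 to 36.9 in control and FAC and 25.5 to 29.8 in the pretreated groups. Stab2 made up most of it, with group means of 28.2, 26.5, 17.9 and 19.2 CPM, whereas Pecam1 and Kdr, each under 4 CPM, had higher means in both pretreated groups than in FAC. The stellate cell sum was 20.8 to 22.0 in FAC and 10.2 to 17.3 in the other groups. Reln alone was highest in FAC, with group means of 7.46, 16.1, 4.53 and 5.23 CPM, while the other 5 stellate cell markers, each under 4 CPM, had lower means in FAC than in control. The lymphocyte sum ranged from 0 to 0.400 and the erythroid sum from 4.81 to 12.9 over all libraries, and Cd3e and Nkg7 were at 0. The part of these markers in the results was not tested, and in bulk samples fewer cells of a type and less RNA per cell cannot be told apart.

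The level of the short transcripts varied between libraries of the same group. The median of the 81 genes, as the deviation of log2 CPM from each gene's mean over the 12 libraries, was 0.19, 0.04 and 0.40 in the control replicates, 0.11, −0.01 and 0.26 in FAC, 0.06, −0.02 and −0.40 with Lip-1+FAC and −0.18, −0.26 and −0.17 with MT+FAC. Control replicate 3 and Lip-1+FAC replicate 3 therefore stood apart from their groups in opposite directions. The 778 other genes with transcripts under 600 bases had medians of 0.34 in control replicate 3 and −0.34 in Lip-1+FAC replicate 3, which were the highest and the lowest of the 12 libraries. The 28 subunit genes with transcripts of 1000 bases or more had 0.13 and −0.11 in these libraries. What sets the level of short transcripts in a library was not tested. Counts of called genes below are therefore given also with fits in which each library's dependence on transcript length, or on length and GC content, was removed by offsets, and without these libraries.

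**Figure D1:**
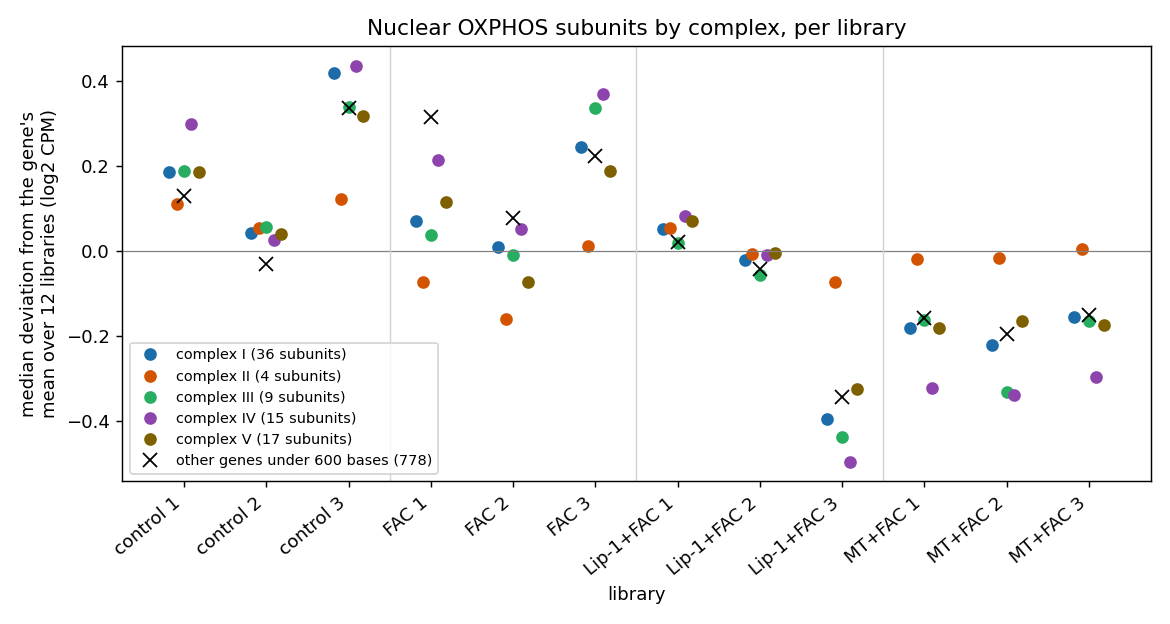
Median deviation of log2 CPM from each gene's mean over 12 libraries (y axis) for the subunit genes of complexes I to V (coloured points) and for 778 other genes with transcripts under 600 bases (crosses), by library (x axis). In control replicate 3 and Lip-1+FAC replicate 3 complexes I, III, IV and V lie above 0.3 and below −0.3 with the other short genes, while complex II stays at 0.12 and −0.07.

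FAC alone against control addressed the effect of the treatment itself. FAC-treated cells had lower transcript levels of 7 of the 81 subunit genes, among them Ndufs1 and Ndufab1 of complex I, Sdhd of complex II, and Atp5a1, Atp5c1 and Atp5f1 of complex V. The falls were small, with log2 fold changes of −0.31 to −0.15, and the median over the 81 genes was −0.10 against −0.01 over all 13535 genes tested. By edgeR's quasi-likelihood test no subunit rose (0 also at an unadjusted p under 0.05 and 0 by DESeq2), whereas 17.5% of all genes tested were called higher and 19.1% lower. The called share of the 81 genes was thus below the background in either direction. All 7 belonged to the 28 genes with transcripts of 1000 bases or more, each of which had a negative fold change.

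Sdhd, a membrane anchor of succinate dehydrogenase, changed most firmly. It stood at 322.9, 312.5 and 318.6 CPM in control and at 257.5, 250.9 and 279.3 CPM in FAC, so that the groups did not overlap (log2 fold change −0.28, SE 0.0522, edgeR adjusted p = 0.000448). It kept this call under all 18 alternatives, with log2 fold changes from −0.32 to −0.18. Ndufs1, the large iron-sulfur subunit of complex I, went from 125.7 ± 3.09 to 110.9 ± 3.20 CPM (SD, n = 3), and Atp5a1, the alpha subunit of the ATP synthase head, from 923.8, 899.9 and 909.6 CPM in control to 810.5, 837.7 and 823.0 CPM in FAC. Ndufab1, the mitochondrial acyl carrier protein, had overlapping groups (41.8 to 60.7 CPM in control, 38.6 to 43.8 CPM in FAC). Of 18 alternatives, 6 ended the call of Ndufs1, 13 that of Ndufab1, 10 that of Atp5a1, 13 that of Atp5c1 and 8 that of Atp5f1. With length offsets, and with length and GC offsets, 2 of the 7 were still called, Sdhd among them, while Atp5g1 and Atp5h were called lower with either offset and Ndufb7 and Ndufb10 with length and GC offsets. Without control replicate 3 and Lip-1+FAC replicate 3, 4 subunits were called higher and 5 lower. The 7 falls became 3 without control replicate 1, control replicate 3, FAC replicate 1 or FAC replicate 2, and 12 without FAC replicate 3.

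Liproxstatin-1 before FAC, compared with FAC alone, addressed whether a lipid radical scavenger alters the response. It went with higher levels of 5 subunit genes (Ndufs1, Sdha, Sdhd and Atp5b among them) and lower levels of 18, of which 5 belonged to complex I, 3 to complex III, 6 to complex IV and 4 to complex V. Of all genes tested, 20.7% were called higher and 19.2% lower, so the share of subunits called higher was below the background and the share called lower close to it. The median over the 81 genes was −0.23 on the log2 scale, against 0.00 over all genes tested. The 5 rises all fell among genes of 1000 bases or more, and 15 of the 18 falls among the shorter ones. Under length and GC offsets the median was −0.02 and 8 genes were called higher and 13 lower. Without FAC replicate 1, FAC replicate 3 or Lip-1+FAC replicate 3 the falls numbered 11, 7 and 8. Without FAC replicate 2, Lip-1+FAC replicate 1 or Lip-1+FAC replicate 3 the rises numbered 3, 2 and 3.

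Mito-TEMPO before FAC, compared with FAC alone, gave 4 rises (Sdha, Sdhd and Atp5b among them) and 30 falls. Complex I had 13 of the falls, complex III 3, complex IV 9 and complex V 5. The background was 21.2% higher and 19.7% lower, and the median over the 81 genes was −0.34 against 0.00 over all genes tested. Falls covered 26 of the 53 shorter subunit genes and 490 of 1816 other genes under 1000 bases, and 4 of the 28 longer subunit genes and 2144 of 11624 other genes of that length. Length and GC offsets left 5 rises and 17 falls, and the median was −0.11. The falls numbered 14, 17 and 14 without FAC replicate 3, MT+FAC replicate 1 and MT+FAC replicate 2, and 50 when control replicate 3 and Lip-1+FAC replicate 3 were both left out. The rises numbered 2 without FAC replicate 1, FAC replicate 2 or any of the MT+FAC replicates. Both scavenger comparisons use the same FAC libraries as the comparison of FAC with control.

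**Figure D2:**
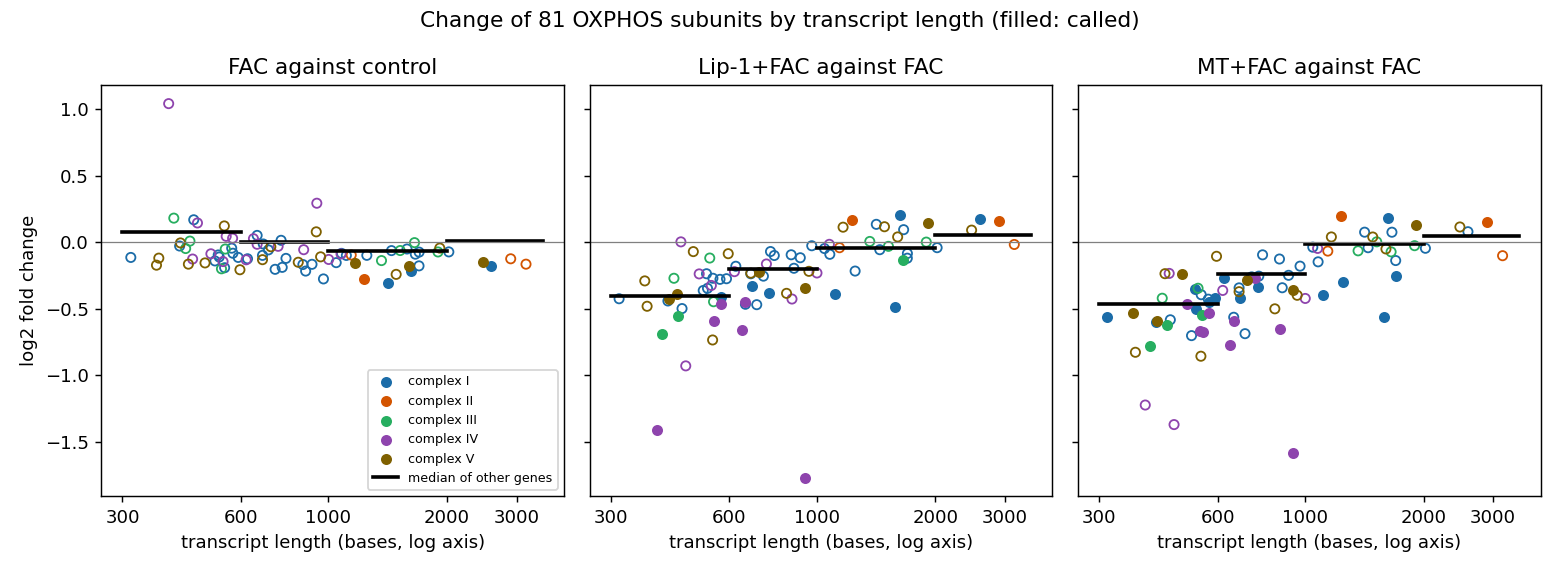
Log2 fold change (y axis) of the 81 subunit genes against transcript length in bases (log x axis) in 3 comparisons, coloured by complex, with filled points for genes called by edgeR; black bars give the median of all other genes in 4 length classes, the longest class having no upper bound. Subunit genes under 600 bases have medians of −0.39 and −0.53 in the scavenger comparisons, beside −0.40 and −0.46 in other genes of that length, and the lowest point is Ndufa4l2.

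Among the subunit genes, the log2 fold change rose with transcript length after either scavenger, with Spearman coefficients of 0.69 for Lip-1+FAC against FAC and 0.73 for MT+FAC against FAC over 81 genes, which were 0.19 and 0.31 with length and GC offsets. Over 13440 other genes the coefficients were 0.16 and 0.15. The points are genes of the same libraries and share their depth and scaling, so these coefficients are descriptions. For FAC against control the coefficient was −0.26 over the subunit genes, and 0.08 with these offsets. Subunit genes under 600 bases had medians of −0.39 in Lip-1+FAC against FAC and −0.53 in MT+FAC against FAC, and the 778 other genes of that length −0.40 and −0.46. Those from 600 to under 1000 bases had −0.23 and −0.35 beside −0.20 and −0.24 in other genes. Subunit genes of 1000 bases or more had −0.02 and −0.04 beside 0.03 and 0.03. In FAC against control, the subunits under 1000 bases had a median of −0.09 and the other genes of that length 0.03.

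Complex I is the entry point for electrons from NADH. Its median was −0.10 in FAC against control, −0.23 in Lip-1+FAC against FAC and −0.32 in MT+FAC against FAC. The core subunits of the peripheral arm did not move together. Ndufs1 rose with Lip-1+FAC (125.5 ± 0.987 CPM, log2 fold change 0.18), a call that was lost with either offset. Ndufs7, which carries an iron-sulfur centre, had log2 fold changes of −0.38 and −0.34, which became −0.01 and 0.02 with length and GC offsets. Ndufv2 had −0.25 in MT+FAC and kept its call at −0.29 with these offsets. Ndufs3, Ndufs8 and Ndufv1, other core subunits, were not called in these comparisons or in FAC against control. With length and GC offsets Ndufs8 (0.16 and 0.16) and Ndufv1 (0.21 and 0.13) were called higher after either scavenger.

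Supernumerary subunits made up 29 of the 36 genes of complex I, and 4 of its 5 falls in Lip-1+FAC and 11 of its 13 in MT+FAC. Ndufv3, with a transcript of 1582 bases, was at 75.5, 75.9 and 95.3 CPM in the control group, 75.3, 71.3 and 92.1 with FAC, 60.2, 61.1 and 49.0 with Lip-1+FAC and 50.5, 54.4 and 56.7 with MT+FAC. All 6 pretreated libraries lay below all others. Its log2 fold changes against FAC were −0.48 (SE 0.114, edgeR adjusted p = 0.00357) and −0.56 (SE 0.114, adjusted p = 0.00125), and −0.38 and −0.51 with length and GC offsets. Ndufa12 (1110 bases), Ndufa2 (572 bases) and Ndufc2 (683 bases) were also called lower after either scavenger and kept this with length and GC offsets. With length offsets alone, Ndufc2 was not called in Lip-1+FAC against FAC. Ndufa1, at 419 bases one of the short membrane-arm subunits, fell with MT+FAC (97.98 ± 6.29 CPM against 148.2 ± 20.7 in FAC, log2 fold change −0.60), a call that 5 of 18 alternatives ended. Ndufc1, the shortest at 315 bases, fell with MT+FAC by 0.56 on the log2 scale, which became −0.12 with length and GC offsets and was then not called. Ndufs4, needed for a stable peripheral arm, had log2 fold changes of −0.14 to −0.07 that were not called, but was called lower after either scavenger with length and GC offsets (−0.18 in both). Reads of Ndufs3, Ndufs5, Ndufs6 and Ndufb11 can be shared with near-identical pseudogenes, so their levels are uncertain, and Ndufa13 shares 30.0% and Ndufb6 39.0% of its exon length with another gene.

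Complex II, succinate dehydrogenase, was the only complex with positive medians after the scavengers, 0.07 with Lip-1+FAC and 0.04 with MT+FAC against FAC. Sdhd was at 302.0, 293.8 and 288.6 CPM in Lip-1+FAC and at 308.1, 296.1 and 300.1 CPM in MT+FAC. These 6 values lay above the 3 FAC values and below the 3 control values. Its rises were 0.17 (SE 0.0522, edgeR adjusted p = 0.0163) and 0.20 (SE 0.0522, adjusted p = 0.0054) on the log2 scale, and 0.18 and 0.22 with length and GC offsets. The first was lost without FAC replicate 2 (0.14 to 0.23 over all alternatives) or without Lip-1+FAC replicate 1. Sdha, the flavoprotein that oxidises succinate, was at 542.3 ± 24.2 CPM in FAC, 605.8 ± 29.2 with Lip-1+FAC and 603.0 ± 9.32 with MT+FAC, with log2 fold changes of 0.16 and 0.15, which were 0.05 in both with length and GC offsets and then not called, and 8 of 18 alternatives ended each call. Sdhb, the iron-sulfur subunit, and Sdhc, the other anchor, were not called in the comparisons with FAC (log2 fold changes −0.10 to −0.02).

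Complex III moves electrons from coenzyme Q to cytochrome c. Its redox-active members were not called in these comparisons. Cyc1, cytochrome c1, had means of 383.8 ± 22.3 CPM in the control group, 367.8 ± 5.27 with FAC, 360.3 ± 19.4 with Lip-1+FAC and 368.9 ± 7.06 with MT+FAC (SD, n = 3). Uqcrfs1, the Rieske protein, and Uqcrc2, a core protein, were likewise not called in the comparisons with FAC or in FAC against control. Uqcrc1 fell with Lip-1+FAC by 0.13 on the log2 scale, which became 0.01 with length and GC offsets, and 8 further alternatives of 18 ended the call. The small subunit Uqcrq (405 bases) was at 222.3, 187.2 and 261.7 CPM in the control group, 216.7, 289.9 and 254.4 with FAC, 178.5, 170.6 and 121.7 with Lip-1+FAC and 144.8, 150.2 and 147.9 with MT+FAC. Every pretreated library was below every other library. Its log2 fold changes against FAC were −0.69 (SE 0.163, edgeR adjusted p = 0.0072) and −0.78 (SE 0.164, adjusted p = 0.00369), and −0.26 and −0.31 with length and GC offsets, still called. Uqcr11 (445 bases) fell by 0.55 and 0.62, and neither call held with length and GC offsets (9 and 7 of 18 alternatives ended them).

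Complex IV, cytochrome c oxidase, had the lowest medians of the 5 complexes against FAC: −0.43 with Lip-1+FAC and −0.59 with MT+FAC. With length and GC offsets they were −0.21 and −0.35. In FAC against control the median was −0.03. Without Ndufa4l2 the medians against FAC were −0.38 and −0.56, and −0.18 and −0.30 with length and GC offsets. Among subunit genes under 1000 bases, the medians against FAC without offsets were −0.45 and −0.65 in complex IV. In complex III they were −0.45 and −0.54. The largest change of any subunit gene above 5 CPM was in Ndufa4l2, a paralogue of the complex IV subunit Ndufa4 and known as a target of hypoxia-inducible factor. Ndufa4l2 was at 106.9, 82.8 and 134.8 CPM in control and at 126.3, 119.1 and 152.9 CPM in FAC. It was at 40.4, 45.4 and 30.7 CPM in Lip-1+FAC and at 40.1, 45.6 and 46.9 CPM in MT+FAC. Pretreated libraries were thus all below the lowest library without a scavenger. Against FAC the log2 fold changes were −1.77 (SE 0.194, edgeR adjusted p = 5.14e-05) and −1.59 (SE 0.192, adjusted p = 0.000116), and against control −1.47 and −1.29. All 4 calls held in each of 18 alternatives, with length and GC offsets giving −1.50 and −1.34 against FAC. FAC against control gave 0.29 (SE 0.185), which was not called, though it was called with length offsets alone and without control replicate 3 and Lip-1+FAC replicate 3.

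Ndufa4 itself was at 210.5, 191.7 and 256.9 CPM in the control group, 205.6, 175.6 and 223.5 with FAC, 238.7, 215.1 and 151.7 with Lip-1+FAC and 174.4, 162.7 and 176.8 with MT+FAC. It was called in none of the 6 comparisons, but was called higher in Lip-1+FAC against FAC with length offsets (0.28) and with length and GC offsets (0.21). It was called lower in MT+FAC against FAC and against Lip-1+FAC without control replicate 3 and Lip-1+FAC replicate 3 (−0.23 and −0.41), and in MT+FAC against control by DESeq2 (−0.35) and in a fit of only the compared libraries (−0.36). The latter kind of fit also called it in MT+FAC against FAC (−0.23). Per length, Ndufa4l2 made up 19.7%, 17.3% and 20.3% of the sum of both genes in the control libraries, 22.9%, 24.7% and 24.9% in FAC, 7.58%, 9.27% and 8.92% with Lip-1+FAC and 10.01%, 11.9% and 11.4% with MT+FAC. No library of a group overlapped another group in this share. The share is a ratio within a library, so that TMM scaling cancels, but the transcripts differ in length (934 and 452 bases).

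**Figure D3:**
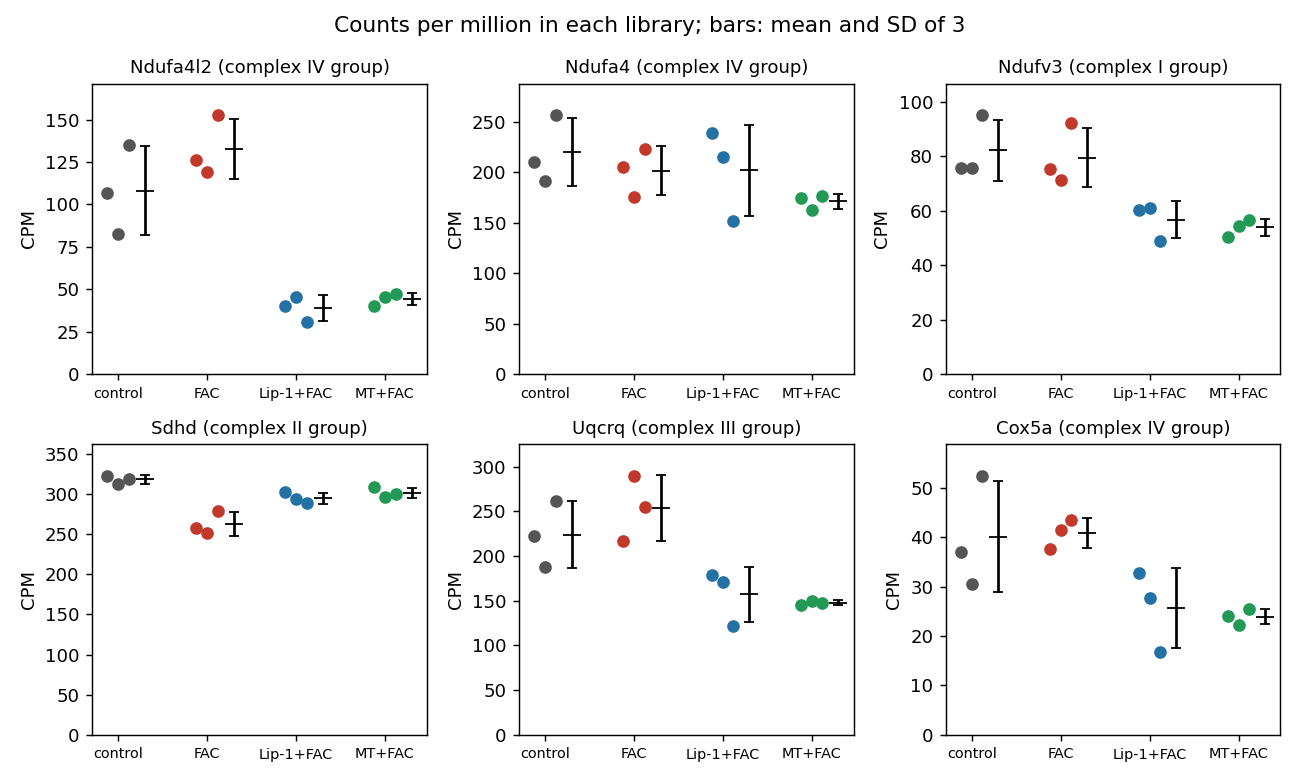
CPM (y axis, from 0) of 6 subunit genes in the 3 libraries of each group (x axis, coloured points), with the mean and SD as black bars. Ndufa4l2, Ndufv3 and Uqcrq lie lower in all 6 pretreated libraries than in the other 6, Sdhd is lowest in FAC, and Ndufa4 in FAC overlaps each other group.

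The other complex IV genes were mostly short. Cox8a (550 bases) was at 130.4, 136.5 and 145.9 CPM in FAC, 100.2, 101.7 and 71.3 with Lip-1+FAC and 84.8, 86.3 and 88.0 with MT+FAC, without overlap with FAC. It fell by 0.59 (SE 0.112, edgeR adjusted p = 0.000834) and 0.67 (SE 0.112, adjusted p = 0.000339) and was called in all 18 alternatives, with −0.21 and −0.26 under length and GC offsets. Cox7a2 fell by 0.45 and 0.59, and Cox5a, which binds the matrix side, by 0.66 and 0.77, from 40.8 ± 3.01 CPM in FAC to 25.8 ± 8.10 and 23.9 ± 1.54. The first call of Cox7a2 was lost when Lip-1+FAC replicate 3, FAC replicate 1 or FAC replicate 3 was left out. Cox5a was called at adjusted p = 0.0488 and 0.0255, and 10 and 6 of 18 alternatives ended these calls. Cox5b, Cox6c and Cox7c fell with MT+FAC only as far as the calls go, by 0.65, 0.47 and 0.67, and a difference between the scavengers was not called for any of them in the fit of all libraries. The calls of Cox5b and Cox7c in MT+FAC against FAC were each lost in 7 of 18 alternatives, for Cox5b without any 1 of the 6 compared libraries and for Cox7c without any 1 of 5 of them. That of Cox6c was lost with length offsets. Without control replicate 3 and Lip-1+FAC replicate 3, Cox5b (−0.42) and Cox7c (−0.58) were called lower in MT+FAC than in Lip-1+FAC. Cox7c has a near-identical annotated copy, so its level is uncertain. Cox4i1, the main isoform of subunit 4, had log2 fold changes of −0.16 and −0.27, the second called, which became 0.03 with length and GC offsets.

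In the Cox7a and Cox6b pairs, Cox7a2 and Cox6b1 carried nearly all of the signal. Cox7a2 made up 99.3% to 99.7% of the per-length sum of Cox7a1 and Cox7a2 on average in the groups. Cox7a1, the heart and skeletal muscle form, was at 0.34 to 0.94 CPM on average and was called lower in Lip-1+FAC against FAC (−1.41, SE 0.542, edgeR adjusted p = 0.0459), a fall not called with length and GC offsets. Cox6b2, the testis form, was at 0.17 to 0.46 CPM on average with no call, beside 170.4 to 239.7 CPM of Cox6b1. Cox7a2l, a factor of respiratory supercomplexes with a 1076-base transcript, was not called in any comparison.

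Complex V is the ATP synthase, with a catalytic head, stalks and a membrane part. Atp5b, the beta subunit, had the highest level per length of all 81 genes, 987 CPM per kilobase in control. It was at 1857, 1846 and 1805 CPM in FAC, 2049, 1956 and 2074 with Lip-1+FAC and 1981, 2044 and 2016 with MT+FAC, with the pretreated libraries all above FAC. The rises were 0.14 (SE 0.0482, edgeR adjusted p = 0.0254) and 0.13 (SE 0.0482, adjusted p = 0.0346) on the log2 scale, and 7 and 12 of 18 alternatives ended them. Atp5a1 and Atp5c1, the gamma subunit, were not called against FAC (log2 fold changes 0.04 to 0.12). The 12 genes under 1000 bases had medians of −0.32 and −0.38 against FAC, and the 5 longer ones 0.11 and 0.04.

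Atp5e, the epsilon subunit (421 bases), was at 55.5, 45.4 and 62.1 CPM in the control group, 52.4, 52.7 and 57.5 with FAC, 46.6, 43.0 and 31.0 with Lip-1+FAC and 37.9, 36.1 and 33.9 with MT+FAC. The falls of 0.43 (SE 0.133, edgeR adjusted p = 0.0203) and 0.59 (SE 0.133, adjusted p = 0.00303) became −0.06 and −0.17 with length and GC offsets and were not called, and the first was also lost when Lip-1+FAC replicate 3 or FAC replicate 3 was left out. Atp5d, the delta subunit, fell by 0.34 and 0.36, and these values were −0.02 and −0.06 with length and GC offsets and not called. The 3 genes for the ring subunit c code for an identical mature protein. Atp5g3 made up 52.6% to 55.6% of their per-length sum on average, Atp5g1 39.7% to 42.8% and Atp5g2 4.06% to 4.90%. Atp5g1, Atp5g2, Atp5h, Atp5k, Atp5l and Atp5o have near-identical pseudogenes, and Atp5o shares 47.9% of its exon length with other annotated genes, so these levels are uncertain. No gene of complex V kept a fall against FAC with length and GC offsets, and Atp5g1 was then called higher after either scavenger (0.25 and 0.24).

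**Figure D4:**
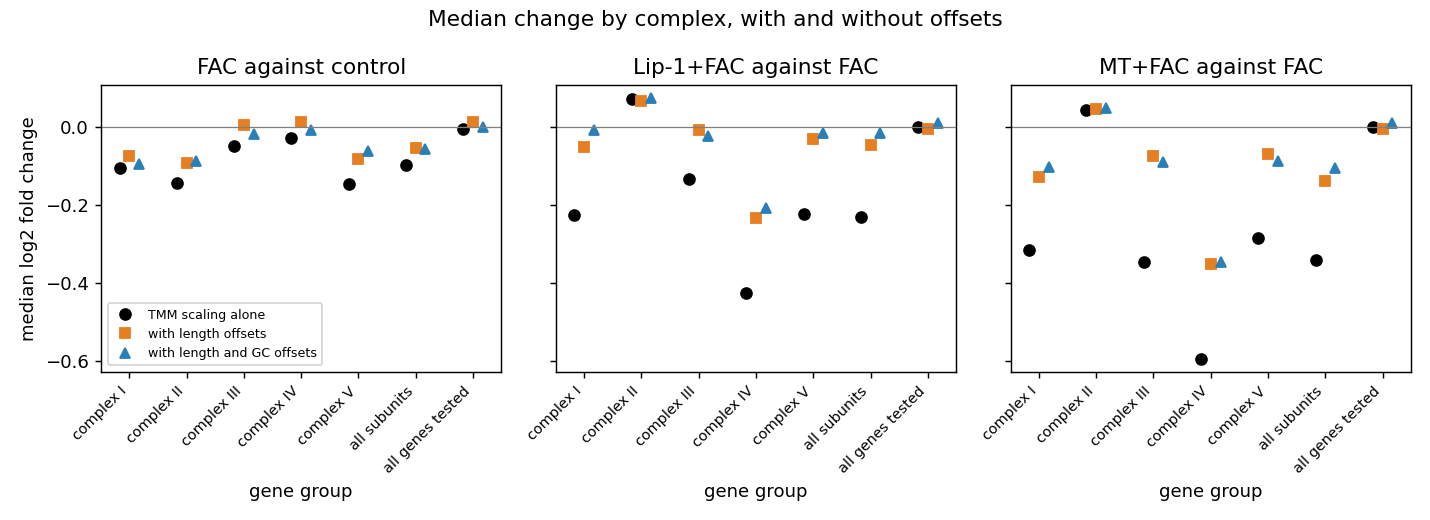
Median log2 fold change (y axis) of the subunit genes by complex, of all 81 and of all 13535 genes tested (x axis) in 3 comparisons, with TMM scaling alone (circles), length offsets (squares) and length and GC offsets (triangles). With length and GC offsets complex IV stays lowest after either scavenger, at −0.21 and −0.35, and the other complexes lie between −0.10 and 0.07.

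Against control, the pretreated cells had only falls among the calls. Lip-1+FAC had 26 subunit genes lower (13 of complex I, 3 of III, 5 of IV and 5 of V) and 0 higher by edgeR, 0 at an unadjusted p under 0.05 and 1 (Atp5b) by DESeq2, beside 14.8% of all genes lower and 15.4% higher. MT+FAC had 42 lower (18 of complex I, 1 of II, 5 of III, 10 of IV and 8 of V) and 0 higher (0 unadjusted, 0 by DESeq2), beside 10.1% lower and 9.71% higher. Medians were −0.32 and −0.44. With length and GC offsets 9 and 20 falls were called, Atp5b and Ndufv1 were called higher in Lip-1+FAC, and the medians were −0.10 and −0.18. The 26 falls became 15 without control replicate 1, 8 without control replicate 3, 7 without Lip-1+FAC replicate 3 and 5 without both of the last. The 42 falls became 20, 16, 19, 16 and 23 without control replicate 1, control replicate 3 or MT+FAC replicate 1, 2 or 3. Among the called genes, Ndufc1 had the lowest fold change of complex I in both (−0.54 and −0.67), Atp5g2 that of complex V in Lip-1+FAC (−0.55) and Atp5mpl, a small membrane subunit, that in MT+FAC (−0.70). Of 18 alternatives, 8 and 1 ended the calls of Ndufc1, 3 that of Atp5g2 and 6 that of Atp5mpl. The first call of Ndufc1 and that of Atp5g2 were lost with either offset. Sdhb fell by 0.16 in MT+FAC, a call that 11 of 18 alternatives ended and in which 2 more turned the direction.

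The scavenger groups were also compared with each other. No subunit was called between MT+FAC and Lip-1+FAC by edgeR or by DESeq2, and at an unadjusted p under 0.05 there were 0 higher and 1 lower, beside 0.465% of all genes higher and 0.879% lower. The median was −0.09 and 70 of the 81 genes had negative values. When control replicate 3 and Lip-1+FAC replicate 3 were left out, 5 genes were called lower in MT+FAC. For Ndufa4l2 the difference was 0.18 (SE 0.194), which was not called.

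Assembly factors build the complexes and are not part of them. Of 52 listed, 49 were tested, and in FAC against control 16 were lower and 0 higher (0 also at an unadjusted p under 0.05 and by DESeq2), with a median of −0.17, beside 19.1% of all genes lower and 17.5% higher. The 16 falls numbered 16 with length and GC offsets as well. Cox15, needed for heme A synthesis, went from 101.5 CPM in control to 75.1 in FAC (log2 fold change −0.44, SE 0.0618, edgeR adjusted p = 2.79e-05). Acad9 and Tmem126b, factors of complex I assembly, had −0.47 each, and Bcs1l, which inserts the Rieske protein, −0.56. In Lip-1+FAC against FAC 10 were higher and 4 lower, and in MT+FAC against FAC 8 were higher and 6 lower, which is near or below the background of 20.7% higher and 19.2% lower, and 21.2% and 19.7%. Acad9 had 0.51 and 0.49, Tmem126b 0.52 and 0.35, Bcs1l 0.33 and 0.53, and Oxa1l, an inner-membrane insertase, 0.31 and 0.37. Uqcc2, a factor of complex III with a 500-base transcript, had −0.78 and −0.85.

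Among 14 genes of coenzyme Q synthesis and cytochrome c, 2 were higher and 4 lower in FAC against control, 3 and 2 in Lip-1+FAC against FAC and 4 and 2 in MT+FAC against FAC. These counts and those of the regulators below stand beside the background shares just given, and of 14 genes a count of 2 to 4 is close to them. Coq8a, a kinase-like protein of coenzyme Q synthesis, went from 54.98 CPM in control to 20.1 in FAC, 42.1 with Lip-1+FAC and 48.0 with MT+FAC. Its log2 fold changes were −1.45, 1.06 and 1.25. Coq8b and Coq10b went the other way, from means of 26.7 and 44.9 CPM in control to 34.4 and 57.5 in FAC. Both had lower means in either pretreated group than in FAC. Of the 14 genes, 10 had negative and 4 positive log2 fold changes in FAC against control. Cycs, cytochrome c, fell with Lip-1+FAC against FAC by 0.22. Of 16 listed regulators 14 were tested. FAC against control called 8 higher and 1 lower, against 3 and 2 in Lip-1+FAC against FAC and 1 and 3 in MT+FAC against FAC. The 8 stand beside 17.5% of all genes tested called higher, and 10 of the 14 had positive and 4 negative log2 fold changes with FAC. Group means in control and FAC were 118 and 263 CPM for Myc, 89.0 and 139 for Pprc1, 87.0 and 124 for Hcfc1 and 55.3 and 73.7 for Crtc2. Ppargc1a, a coactivator of OXPHOS genes, was the only one called lower with FAC, from 11.6 to 7.94 CPM (log2 fold change −0.55, SE 0.132, edgeR adjusted p = 0.00326), and it rose by 0.59 and 0.37 after the scavengers. Nrf1, the factor whose letters are shown above, was not called (0.02, 0.03 and 0.10).

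The mitochondrially encoded subunits of the same complexes were measured beside the nuclear ones. Of 13, 10 were tested, and in FAC against control 1 was higher and 0 lower, beside 17.5% and 19.1% of all genes tested. All 10 were lower in Lip-1+FAC against FAC (median −0.73) and all 10 in MT+FAC against FAC (median −1.12), where 19.2% and 19.7% of all genes tested were called lower. Of these, mt-Co2, mt-Co3 and mt-Atp6 had group means of only 0.311 to 4.83 CPM and the lowest fold changes, down to −2.57, while mt-Nd1, at 1227 CPM in FAC, had −0.72 and −1.59. All 10 were lower in both comparisons also with length and GC offsets. With these offsets 5 were higher in FAC against control. All genes with symbols starting mt-, which are not limited to subunits, together held 0.954% to 1.23% of the counts in control and FAC libraries. In the pretreated libraries they held 0.639% to 0.798%.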

How the data were processed

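The values deposited by the authors are raw, unnormalized counts per gene in the layout of STAR. STAR and GRCm38 are named per the submitters' processing notes, and the aligner version and annotation are not given in the sources used here. Per the labels' protocols, cDNA was amplified with SMART-Seq v4 and libraries were made with Nextera XT, without mention of molecular identifiers. The unstranded column was used, since reads fell on either strand at close to equal shares (forward 49.9% to 50.0%). Lines that name no gene stayed out of library sizes, which left 75.8% to 79.8% of reads in control and FAC libraries and 80.4% to 81.2% in pretreated ones. In this layout multimapping reads are set apart, so genes with near-identical copies are uncertain. Amplified reads without identifiers are not independent molecules. Copies of 12 subunit genes were found among annotated transcripts with blastn 2.17.0+ at 95% identity over at least 50% of the transcript.

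Gene names, lengths and positions come from GENCODE M21. Genes were filtered with filterByExpr, scaled by TMM and tested in edgeR 4.0.16 (R 4.3.3) with the robust quasi-likelihood F test, on 4 group means over all 12 libraries, two-sided, with Benjamini-Hochberg adjustment over 13535 genes and calls at an adjusted p under 0.05. SE is the size of the log2 fold change divided by the square root of F. Offsets were loess fits (span 0.3) of each library's log2 CPM deviations on length, or on length and GC content. The scripts were tested on simulated data. Replicate pairs differed by a chi-square per degree of freedom of 8.15 to 22.1, so no pair agreed within the sampling noise of reads.

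The members, lists and named genes were chosen with earlier results of these data known. The rule names a fixed list per complex and, in each comparison and complex, the called gene with the largest change in each direction provided its mean was 5 CPM or more and the groups did not overlap. Other genes were named as examples after their values were seen. Alternatives changed the scaling, the filter, the test (DESeq2 1.42.0), the libraries, the count columns, the offsets and the replicate block. Leaving out control replicate 3 and Lip-1+FAC replicate 3 together was added after seeing the data. Some genes are not reported here by name.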

Additional observations from a re-analysis of the deposited data

How the results depend on the processing

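Correlations of same-numbered libraries, as deviations from their group means, ran from −0.25 to 0.16, with 3 of 18 over 0.1. Those of differently numbered libraries ran from −0.20 to 0.22. No pairing by number was seen, but with 3 libraries per group these values cannot show that the samples were unpaired. With the replicate number as a block, 6 falls were called in FAC against control, 5 rises and 16 falls in Lip-1+FAC against FAC, 4 rises and 27 falls in MT+FAC against FAC, 20 falls in Lip-1+FAC against control and 32 in MT+FAC against control. With the replicate block and length and GC offsets together, there were 8 rises in Lip-1+FAC against FAC, 17 falls in MT+FAC against FAC, 2 rises and 9 falls in Lip-1+FAC against control and 19 falls in MT+FAC against control, and the medians of these 4 comparisons were −0.015, −0.11, −0.10 and −0.18. Without the block the same offsets gave 8, 17, 2 and 9, and 20, with medians of −0.017, −0.11, −0.10 and −0.18. Length offsets alone gave 1 rise and 4 falls in FAC against control, 1 rise and 10 falls in Lip-1+FAC against control and 23 falls in MT+FAC against control, and medians of −0.048 for Lip-1+FAC and −0.14 for MT+FAC against FAC and of −0.093 and −0.20 against control. A fit of only the compared libraries gave 2 falls in FAC against control, 3 rises in Lip-1+FAC against FAC, 51 falls in MT+FAC against FAC and 10 falls in Lip-1+FAC against control. RLE scaling gave 4 falls in FAC against control, and DESeq2 1 rise in Lip-1+FAC against control. Without control replicate 3 and Lip-1+FAC replicate 3 there were 4 rises in FAC against control, 3 rises in Lip-1+FAC against FAC, 50 falls in MT+FAC against FAC, 5 falls in MT+FAC against Lip-1+FAC, and 5 falls with a median of −0.093 in Lip-1+FAC against control.

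Leaving out each of the 6 libraries of the compared groups in turn gave 3 to 12 falls in FAC against control (median −0.18 to −0.01), 2 to 5 rises and 7 to 24 falls in Lip-1+FAC against FAC (median −0.32 to −0.07), 2 to 3 rises and 14 to 31 falls in MT+FAC against FAC (median −0.40 to −0.26), a median of −0.22 to −0.0040 with 0 calls in MT+FAC against Lip-1+FAC, 7 to 37 falls in Lip-1+FAC against control (median −0.41 to −0.19) and 16 to 52 falls in MT+FAC against control (median −0.55 to −0.32). Rises in FAC against control and in both comparisons of pretreated cells with control were 0 each time.

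Some genes changed sign. In Lip-1+FAC against FAC, Atp5g1 was 0.15 with length offsets and 0.25 with length and GC offsets, with or without the block. Under these offsets, without and with the block, Atp5g2 was 0.023 and 0.016, and Uqcrc1 0.0066 and 0.0067. Ndufs8 was 0.16 in both. In MT+FAC against FAC, Atp5g1 was 0.16 with length offsets and 0.24 with length and GC offsets. Under the latter, without and with the block, Cox4i1 was 0.0283 and 0.0295, Ndufs7 0.0185 and 0.0198, and Ndufs8 0.16. In Lip-1+FAC against control, Atp5d was 0.0229 and 0.0232, Atp5g1 0.0181 and 0.0187 and Uqcrc1 0.0299 and 0.0300, and in MT+FAC against control Atp5g1 was 0.0152 and 0.0153 and Sdhb 0.0022 and 0.0024. The cause was not tested. Depth limits the isoforms under 1 CPM, Cox7a1 and Cox6b2.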
